A study of Mus musculus with 2 samples.

Results

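CD40 ligand (gene symbol Cd40lg) and its receptor CD40 (gene symbol Cd40) were described in single-cell RNA counts from mouse bladder tumours, as 2 of the 32285 genes measured. Both genes were taken by symbol, and their levels were read in barcodes grouped by the transcripts that define T cell states. The samples were MB49 tumours, a transplanted mouse bladder cancer line, collected on day 14 from female and from male C57BL/6J mice aged 12 to 14 weeks, with no other treatment or allele named in the labels. There was 1 library per sex, and the number of mice behind each is not stated. According to the labels, live CD4+ T cells were sorted from digested tumours, and 10000 to 20000 cells entered a droplet reaction whose chemistry captures the 5' end of transcripts. The title of the series places the study in the question of CD4+ T cell help through CD40L and CD40 and of weaker tumour control in males.

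CD40L is a membrane protein of the tumour necrosis factor (TNF) family that helper CD4 T cells display after their antigen receptor is engaged. CD40, a TNF receptor family member on dendritic cells, macrophages and B cells and also on some epithelial and tumour cells, recruits TRAF adaptors and switches on NF-kB. In antigen-presenting cells this raises costimulatory molecules and cytokines, and it is the classical route by which CD4 T cells license dendritic cells to prime CD8 T cells. Activated CD8 T cells can also make CD40L.

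Barcodes with at least 500 detected genes and at most 10% mitochondrial transcripts were kept, 3468 female and 3519 male ones, with medians of 9517 and 7880 unique transcript counts (UMIs). Cd8 barcodes held at least 2 Cd8a or Cd8b1 UMIs and no Foxp3 UMI (2245 female, 1940 male). Treg barcodes held a Foxp3 UMI, the mark of regulatory T cells, and no Cd8a or Cd8b1 UMI (233 and 345). Other Cd4 barcodes held a Cd4 UMI and neither Foxp3 nor Cd8a nor Cd8b1 UMIs (248 and 231). MHC II barcodes held at least 3 UMIs of H2-Aa, a class II antigen-presentation gene (62 and 98), and 23 of the female and 30 of the male ones also counted in a T cell state. The states left 703 female and 935 male barcodes unplaced. Despite the labelled sort, Cd8 barcodes were the most numerous state, and Cd8a and Cd8b1 together gave 72783 female and 62384 male UMIs against 1856 and 2155 for Cd4. Cd3e, a T cell receptor subunit, was found in 93.6% to 98.2% of barcodes of the 3 T cell states. Barcodes could hold more than 1 cell, no doublet caller was run, and 12 kept barcode sequences occurred in both libraries, 2 of them with a Cd40lg UMI.

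Both genes were sparse. Cd40lg lies on chromosome X (GRCm38, 57212143 to 57224042, plus strand, 5 exons, ENSMUSG00000031132) and gave 620 UMIs in 318 female barcodes and 580 UMIs in 317 male barcodes. Cd40 lies on chromosome 2 (165055627 to 165072948, plus strand, 9 exons in its longest transcript, ENSMUSG00000017652) and gave 47 UMIs in 25 female barcodes and 91 UMIs in 52 male barcodes. Levels are UMIs of the gene over all UMIs of the barcode class on the counts-per-million scale (CPM). With 1 library per sex no difference could be tested, so every interval is an exact 95% interval of counting error. Since UMIs cluster in cells, these intervals are too narrow for a spread between cells or mice. Where a count was 0, the limit given is 3 counts or 3 cells, which lies under the upper end of the exact interval. UMIs tag single transcripts, but the 2 genes' levels are not corrected for how well each is captured and were not compared with each other.

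Cd40lg was highest in the other Cd4 barcodes. The female library had 235 Cd40lg UMIs there, a level of 148 CPM (129.8 to 168), in 101 of 248 cells, or 40.7% (34.6 to 47.1). The male library had 149 UMIs, 108 CPM (91.5 to 127), in 76 of 231 cells, or 32.9% (26.9 to 39.4). Most of these cells held little of it: 62 of the 101 female and 43 of the 76 male positive cells had 1 UMI, and 12 and 6 had 5 or more. No single cell carried the level, since the fullest cell held 21 female and 8 male UMIs, 8.94% and 5.37% of the state's total.

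Tregs had little Cd40lg, and the libraries did not give the same level. The female library had 10 UMIs in 7 of 233 Tregs, 4.99 CPM (2.39 to 9.18). The male library had 45 UMIs in 26 of 345 Tregs, 18.4 CPM (13.4 to 24.6), of which 10 UMIs came from 1 cell. Relative to Tregs, the level in other Cd4 barcodes was 29.7-fold higher (15.9 to 62.7) among female and 5.87-fold higher (4.18 to 8.39) among male cells.

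Cd8 barcodes had a low level spread over many cells. It was 180 UMIs in 110 of 2245 female cells, 5.28 CPM (4.54 to 6.11), and 207 UMIs in 111 of 1940 male cells, 8.36 CPM (7.26 to 9.58). The other Cd4 level was 28.1-fold (23.0 to 34.3) and 12.9-fold (10.4 to 16.0) that of Cd8 barcodes. Because Cd8 barcodes were so numerous, they nevertheless held 29.0% of all female and 35.7% of all male Cd40lg UMIs, next to 37.9% and 25.7% for other Cd4 barcodes and 1.61% and 7.76% for Tregs. Treg and Cd8 levels could not be told apart in the female library (ratio 0.946, interval 0.446 to 1.78), while in the male library the Treg level was 2.20 times the Cd8 level (1.56 to 3.05).

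MHC II barcodes had 22 Cd40lg UMIs in each library, 7.14 CPM (4.47 to 10.8) female and 5.59 CPM (3.50 to 8.46) male. Pooled over libraries and with the 42 shared barcodes taken out of the Cd8 state, that level was 0.970 times the Cd8 level (0.693 to 1.33), so these neighbours in the order could not be separated. Cd3e was found in 72.6% of female and 83.7% of male MHC II barcodes and Cd8a in 66.1% and 73.5%, and the MHC II barcodes without a Cd3e UMI (17 and 16) had 0 Cd40lg UMIs, which allows up to 3.77 and 4.56 CPM. As a background, keratin-positive barcodes (at least 10 Krt8 or Krt18 UMIs and no Cd3e UMI, 29 and 24 in number) had 0 Cd40lg UMIs at median depths of 52964 and 44362.5 UMIs, which allows up to 1.17 CPM over both libraries and 5.66% of barcodes.

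How many cells show a Cd40lg UMI depends on depth, and Cd8 barcodes were deeper than other Cd4 ones (medians of 10507 and 8859.5 against 5204.5 and 5219 UMIs). When every cell was thinned to 3730 UMIs and shallower cells were left out, 31.8% of 194 female and 26.1% of 182 male other Cd4 cells held a Cd40lg UMI. The thinned shares were 1.55% and 4.23% in Tregs and 1.98% and 2.75% in Cd8 barcodes, against unthinned shares of 3.0%, 7.54%, 4.90% and 5.72%. Thinning thus kept other Cd4 cells far above the other states.

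**Figure D1:**
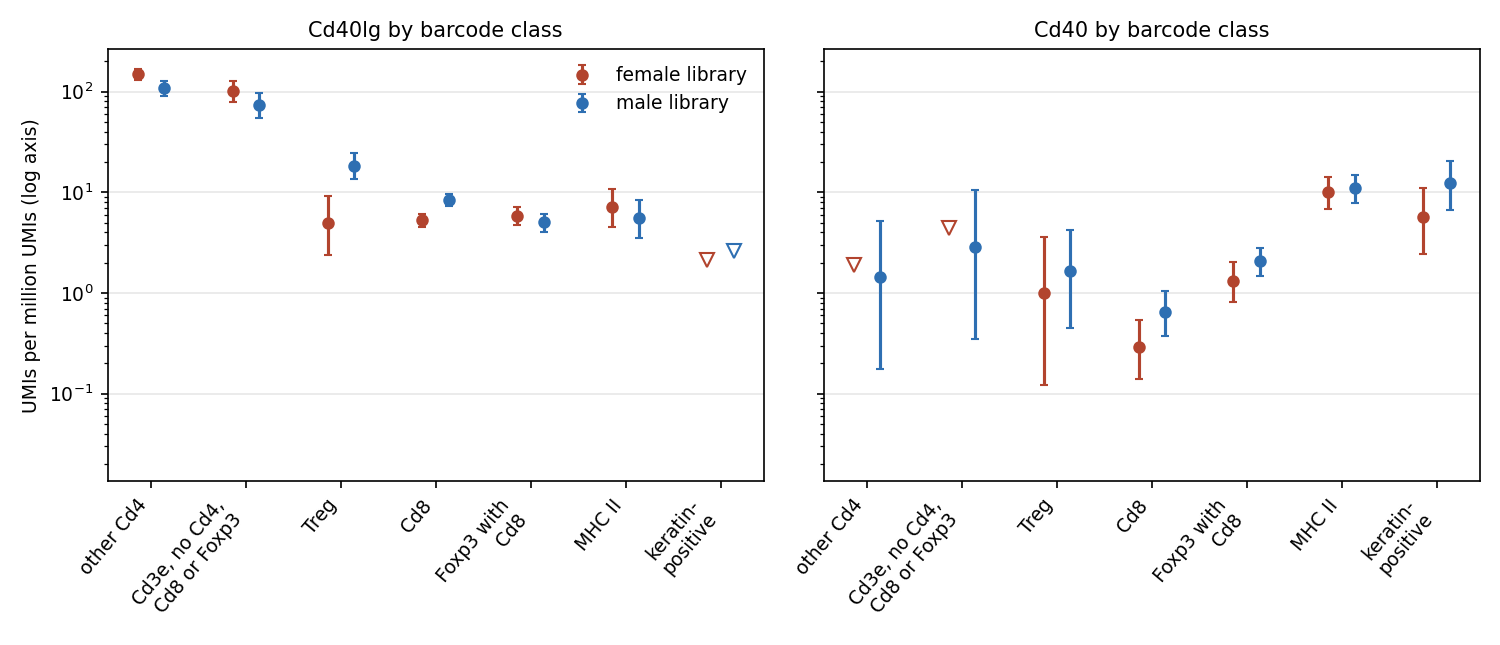
Level of Cd40lg (left) and Cd40 (right) in CPM on a log axis, by barcode class, for the female (red) and male (blue) library; points are levels, bars exact 95% counting intervals, and open triangles the limit of 3 counts where no UMI was seen. Cd40lg stands at 148 and 108 CPM in other Cd4 barcodes and under 20 CPM in Treg, Cd8 and MHC II barcodes, while Cd40 stands near 10 CPM in MHC II barcodes.

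Cd40lg was among the genes that differed most between other Cd4 barcodes and the remaining T cell states. By the smaller of the female and male ratios it ranked 11 of 7762 genes measured against Cd8 and 28 of 7756 against Treg. The states differ in many genes: 831 genes (10.7%) were at least 1.5-fold higher in both libraries and 632 (8.14%) at least 1.5-fold lower in other Cd4 than in Cd8 barcodes, and 465 (6%) higher and 846 (10.9%) lower than in Tregs. A 1.5-fold difference in both libraries is a description of these libraries and has no replicate check.

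The relatives of CD40L in the TNF family did not share 1 pattern. Of 10 other ligands measured, 4 were higher and 1 was lower in other Cd4 than in Cd8 barcodes. Tnfsf8, which encodes CD30 ligand, came closest to Cd40lg, with log2 ratios of 4.58 female and 3.95 male (512 and 420 UMIs in other Cd4 barcodes), next to 4.81 and 3.69 for Cd40lg. Tnfsf11, which encodes RANK ligand (2.0 and 2.62), Lta, which encodes lymphotoxin alpha (1.02 and 1.05), and Tnfsf9, which encodes 4-1BB ligand (1.16 and 0.75), were also higher, and Tnfsf10, which encodes TRAIL, was lower (−0.74 and −1.11). Ltb (0.08 and 0.30) and Fasl (−0.05 and −0.56) had no 1.5-fold difference in both libraries. Against Tregs, 5 of 8 ligands were higher, namely Tnfsf8 (5.75 and 3.63), Tnfsf11 (4.67 and 3.60), Fasl (2.71 and 2.17), Tnf (1.40 and 0.78) and Lta (1.06 and 0.95), and Ltb was lower (−0.70 and −0.76).

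Some genes of the lists for CD40 signalling and for CD40L transcription were higher in other Cd4 barcodes. Other Cd4 barcodes had 0 female and 2 male Cd40 UMIs, and whether CD40 had a part in these differences was not tested. Of 18 genes of CD40 signalling, 7 were higher in other Cd4 than in Cd8 barcodes, among them Nfkb1 (log2 1.26 and 1.18) and Tnfaip3, an NF-kB feedback inhibitor (1.01 and 0.91). Map3k14, the kinase of the alternative NF-kB branch, was also higher (0.89 and 0.92), and no gene of the list was lower. Their median was 0.56 female and 0.66 male, against 0.07 and 0.06 over all genes. Of 10 genes of CD40L transcription and RNA decay, 4 were higher than in Cd8 barcodes, the activator protein genes Fos (1.60 and 1.54) and Junb (1.29 and 1.21) and the calcium-driven factors Nfatc2 (1.06 and 0.84) and Nfatc3 (0.84 and 0.61), and none was lower. Fos and Junb are also raised by tissue digestion, and their part here was not tested. Against Tregs, Nfatc1 alone of these 10 was higher (1.51 and 0.61), and of the 18 signalling genes Map3k14 and Tnfaip3 were higher and Traf3 was lower.

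The genes whose levels followed Cd40lg most closely over 7 barcode classes in both libraries (14 points, 8177 genes) included Krt83 (Pearson r 0.99), Tnfsf8, Srpk1 and Susd6 (0.98 each), and Prkca, Cdk11b and Btg1 (0.97 each). Tnfsf8 was itself abundant in other Cd4 barcodes, at 323 CPM female and 305 CPM male, and Krt83, a hair keratin gene, reached 27.1 CPM. The points share libraries and depth, so r is a description only.

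Other T cell barcodes carried the ligand too. Barcodes with a Cd3e UMI but no Cd4, Foxp3, Cd8a or Cd8b1 UMI (135 and 179, medians of 4184 and 3726 UMIs) had 69 Cd40lg UMIs in the female library, 102 CPM (79.3 to 129), and 51 in the male library, 73.7 CPM (54.9 to 96.9). The level in other Cd4 barcodes was 1.45 (1.11 to 1.93) and 1.47 times (1.06 to 2.06) this level. Barcodes with both Foxp3 and a Cd8a or Cd8b1 UMI (375 and 464) were far deeper, with medians of 35258 and 35184 UMIs. Their Cd40lg level was 5.87 CPM (89 UMIs) in the female library, near the Treg and Cd8 levels of 4.99 and 5.28 CPM. In the male library it was 5.01 CPM (95 UMIs, 4.06 to 6.13), below the Treg level of 18.4 CPM and the Cd8 level of 8.36 CPM. Barcodes in none of the 4 states held 29.4% of the female library's and 28.6% of the male library's Cd40lg UMIs.

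Between the libraries, Cd40lg was higher in female other Cd4 barcodes and higher in male Treg and Cd8 barcodes. The log2 ratio of female over male CPM was 0.45 (0.15 to 0.76) in other Cd4, −1.88 (−3.04 to −0.87) in Treg and −0.66 (−0.96 to −0.37) in Cd8 barcodes. It was 0.35 (−0.57 to 1.27) in MHC II barcodes and 0.47 (−0.08 to 1.02) in Cd3e barcodes without Cd4, Foxp3 or Cd8 transcripts. The ratio of the 2 libraries over all kept barcodes hid these opposite signs, at 11.1 CPM female and 11.4 CPM male. After thinning, the female minus male difference in the share of positive cells was 5.70 percentage points (−3.54 to 15.4) in other Cd4, −2.67 (−5.82 to 0.70) in Treg and −0.77 (−1.82 to 0.22) in Cd8 barcodes, and each of these intervals included 0.

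The female excess in other Cd4 barcodes was not evenly spread over them. In cells with 1 Cd4 UMI (102 female, 106 male) the levels were 169 and 77.3 CPM, a log2 ratio of 1.13 (0.58 to 1.69), and the female cell with 21 Cd40lg UMIs was among them. In cells with 2 or more Cd4 UMIs (146 and 125) the levels were 137 and 127 CPM, a log2 ratio of 0.10 (−0.27 to 0.48). In cells with an Ifng UMI the ratio was 0.67 (0.06 to 1.32) and in cells without one 0.28 (−0.08 to 0.64). The difference between the libraries was therefore not detectable at this depth among other Cd4 cells with 2 or more Cd4 UMIs.

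In Tregs the male excess kept its direction among cells with stronger Foxp3 evidence. With 2 or more Foxp3 UMIs the levels were 5.78 and 14.9 CPM, a log2 ratio of −1.37 (−2.55 to −0.31), and with 5 or more it was −1.26 (−2.73 to 0.00). With a single Foxp3 UMI, 0 of 37 female cells and 12 UMIs in 50 male cells were seen, 10 of the 12 in 1 cell. Epithelial or tumour keratin markers summed to 661.9 CPM in female and 22.5 CPM in male Tregs, and their part in the ratio was not tested. Among Cd8 barcodes the male excess was larger where no Cd4 UMI was present, at 3.67 CPM female and 7.44 CPM male, a log2 ratio of −1.02 (−1.38 to −0.66). It was 1.06 (−0.03 to 2.28), the opposite direction, with 1 Cd4 UMI and −0.53 (−1.26 to 0.20) with 2 or more.

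**Figure D2:**
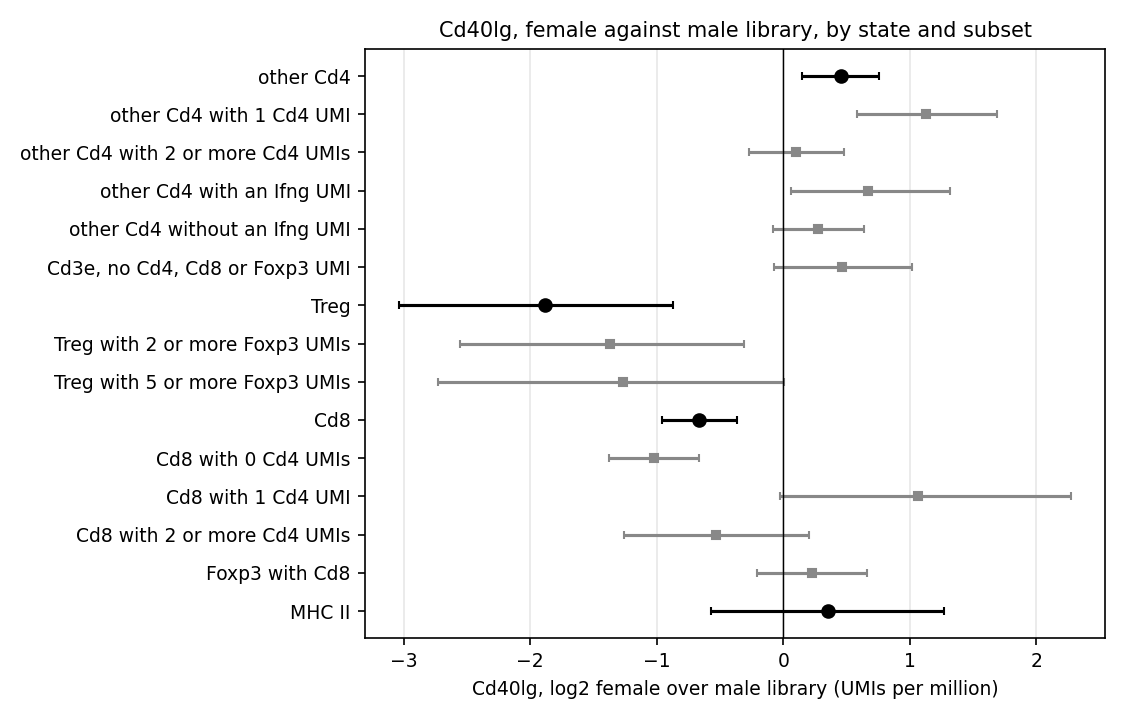
Log2 ratio of Cd40lg CPM in the female over the male library, with exact 95% counting intervals, for 4 states or classes (black circles) and for subsets and further classes (grey squares). The ratio is 0.45 in other Cd4, −1.88 in Treg and −0.66 in Cd8 barcodes, and among other Cd4 barcodes it is 1.13 with 1 Cd4 UMI and 0.10 with 2 or more.

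Genes found in the same cells as Cd40lg were then counted. For each gene, UMIs observed in cells with a Cd40lg UMI were set over those expected from cells of the same state, library and depth band without one. A cell without a Cd40lg UMI may still express the gene at these depths. In other Cd4 cells (101 positive and 147 negative female, 76 and 155 male), 129 of 7356 genes (1.75%) were at least 1.5-fold higher and 41 (0.557%) at least 1.5-fold lower in both libraries. A further 269 genes passed 1.5-fold in opposite directions, more than the 2 calls together, so many genes with few UMIs did not repeat between libraries. Among the 3632 genes with at least 20 expected UMIs, 17 were higher, 40 were lower and 20 had opposite directions. Many calls rested on single cells: without the cell richest in the gene in each library (a positive cell for higher and a negative cell for lower genes), 45 of the 129 and 15 of the 41 stayed past 1.5-fold in both libraries.

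By the smaller of both ratios, the gene called highest beside Cd40lg in other Cd4 cells was Il2, which encodes the T cell growth factor interleukin 2. Positive cells held 44 Il2 UMIs where 3.63 were expected in the female library (log2 3.60) and 10 where 1.11 were expected in the male library (3.17), in 7 and 4 cells. Without the richest cell of each library, Il2 stayed at 2.72 and 2.17. Cd200r1, an inhibitory receptor gene, had 14 observed against 2.56 expected UMIs (2.45) and 12 against 3.64 (1.72). Plscr1, an interferon-induced phospholipid scramblase gene, rested on more counts, with 98 against 42.7 (1.20) and 100 against 44.9 (1.16), and was found in 36.6% of positive and 20.4% of negative female cells and 47.4% and 26.5% of male cells. The other leading genes were Mbtps2 (3.05 and 2.02), Acvr2a (1.46 and 2.97), Itpa (1.37 and 1.43), Cmtm4 (1.55 and 1.27), Hexa (1.20 and 1.25), Snap47 (1.36 and 1.18), Rap2c (1.16 and 1.34) and Sec22a (1.41 and 1.13), each on few UMIs. Asf1b was also called (2.04 and 1.58), but 1 cell held 64.7% of its female and 62.5% of its male UMIs, and without those cells the male ratio was 0.21.

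Part of the list of T cell receptor activation genes was higher beside Cd40lg. Of 12 such genes measured, 3 were higher beside it and none lower, with a list median of 0.73 female and 0.27 male against −0.01 and 0.01 over all genes. Nr4a1, an immediate response gene to receptor engagement, had 528 observed against 215 expected UMIs (1.30) and 327 against 207 (0.66). Nfkbid, an NF-kB cofactor gene, had 210 against 93.1 (1.17) and 148 against 79.0 (0.91), and Myc, which encodes a transcription factor of cell growth, 32 against 7.18 (2.16) and 20 against 10.8 (0.89). Without the richest cells, Nfkbid stayed past 1.5-fold in both libraries (1.07 and 0.79), while Nr4a1 (1.20 and 0.55) and Myc (1.69 and −0.21) did not. The early activation marker Cd69 had log2 ratios of 0.67 and 0.52 and was not called.

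Few helper genes were called. Of 11 genes of CD4 help, Il2 alone was called higher, and the list medians were 0.40 and 0.10. Il21 (4.71 and 0.22), Tnfsf8 (2.19 and 0.39) and Ifng (0.43 and 1.85) each passed 1.5-fold in 1 library and not in the other. Of 12 Th1 genes, Il18rap (0.60 and 0.59) and Cxcr6 (0.59 and 0.75) were just past the fold, and neither was without its richest cells. None of 4 Th2, 6 Tfh or 4 Th17 genes was called. Il13, a Th2 cytokine gene, had 103 observed against 8.57 expected UMIs and 29 against 1.38, but in 2 female cells and 1 male cell. Cells with an Ifng UMI (59 and 31) had a Cd40lg level of 216 and 136 CPM against 125 and 103 CPM without one, 1.74-fold (1.32 to 2.28) and 1.32-fold (0.853 to 1.98). Between cells with and without a UMI of Tcf7, which encodes a factor of less differentiated T cells, no Cd40lg difference was detectable, the ratio being 0.983 (0.789 to 1.23) over both libraries.

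Lower beside Cd40lg was Lag3, an inhibitory receptor gene (32 observed against 96.1 expected UMIs, log2 −1.59, and 79 against 158, −1.0). Ccr7, the lymph node homing receptor gene, was also called (302 against 479, −0.67, and 509 against 775, −0.61), but at −0.46 and −0.50 without the richest negative cells it no longer passed. Lag3 was found in like shares of positive and negative cells, 16.8% and 17% female and 27.6% and 27.1% male, so the difference lay in the UMIs per cell. Tcf12, a helix-loop-helix factor gene (28 against 65.8, −1.23, and 22 against 50.8, −1.21), Snx9 (−1.37 and −1.44), Actn1 (−1.17 and −1.20), Pkp4 (−1.01 and −1.20), Tubb2a (−1.01 and −1.16), Mppe1 (−1.07 and −1.0) and Osgep (−1.13 and −0.97) were also lower. Only 15 of the 41 lower genes stayed past 1.5-fold without the richest negative cells. For Lag3 and the genes from Tcf12 to Osgep, the ratios without those cells are not reported here. Among 10 Treg genes, Ikzf2 was lower (−0.69 and −1.48, and −0.47 and −1.13 without the richest cells). Areg, which encodes the tissue repair ligand amphiregulin, was called higher (2.60 and 1.02), but 1 cell held 90.4% of its female and 64.1% of its male UMIs, and without those cells its ratios turned to −0.72 and −0.40. Ccr7 was the 1 gene called lower of 10 naive genes, Lag3 the 1 of 7 inhibitory receptor genes, and none of 9 cytotoxic, 7 cell cycle or 14 dissociation stress genes was called.

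The lists closest to the ligand had few calls in other Cd4 cells. None of 9 other TNF ligands, 18 CD40 signalling genes (medians 0.26 and 0.15) or 10 genes of CD40L transcription and RNA decay (0.06 and 0.02) was called. Of 8 CD40 target genes, Icam1 was higher (0.61 and 0.74) and Ccr7 lower, and of 4 genes for binding partners, Itgb1, a subunit of an integrin that binds CD40L, was higher (0.77 and 0.60). Without their richest cells neither Icam1 nor Itgb1 passed 1.5-fold in both libraries. Markers of antigen-presenting cells were not higher beside the ligand: the MHC II list summed to 38.8 CPM in positive and 243 CPM in negative female cells and to 59.0 and 130 CPM in male cells. Macrophage markers summed to at most 5.98 CPM in any of these 4 groups of cells, natural killer markers to 46.9 CPM at most, and neutrophil markers to 268 CPM in negative male cells and 0 in the other groups.

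**Figure D3:**
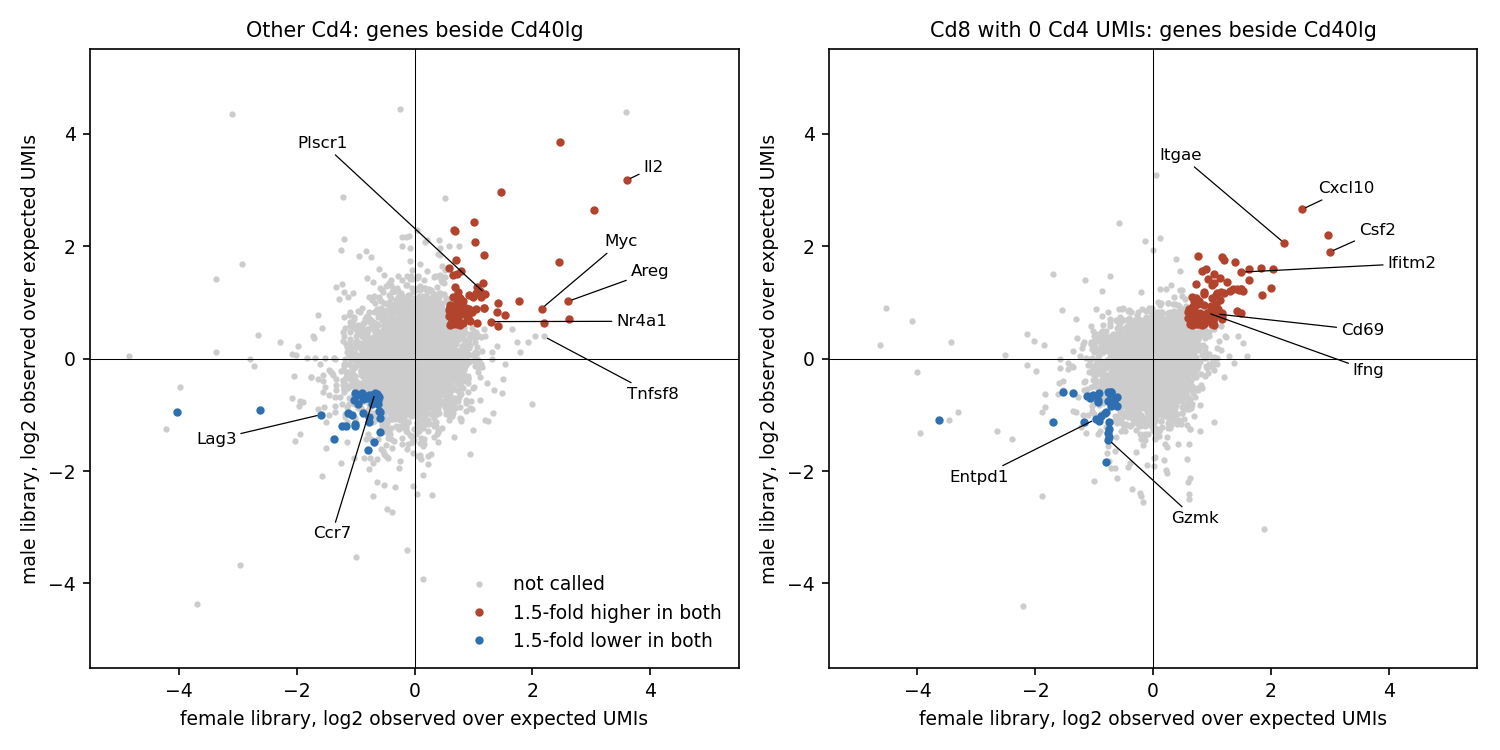
Each dot is a gene placed by its log2 ratio of observed over expected UMIs beside Cd40lg in the female (x axis) and male (y axis) library, in other Cd4 (left) and in Cd8 barcodes with 0 Cd4 UMIs (right); genes at least 1.5-fold higher in both are red and lower in both blue. Genes shown have at least 10 observed or expected UMIs in both libraries, 1 gene (Gzmc) lies beyond the left edge of the left panel, and Il2, Nr4a1 and Plscr1 lie at the upper right there, as do Itgae, Csf2 and Ifitm2 in the right panel.

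Tregs with a Cd40lg UMI were few, 7 female and 26 male, and their other transcripts are given as values. Foxp3, which the state rule requires of every Treg barcode, was at 578 CPM in positive and 537 CPM in negative female Tregs, a log2 ratio of 0.11 (−0.32 to 0.50). In male ones it was at 561 and 674 CPM, a log2 ratio of −0.26 (−0.51 to −0.03). Tnfsf11 was found in 28.6% of positive against 3.54% of negative female Tregs and in 26.9% against 4.39% of male ones. Tnfsf8 was found in 19.2% of positive and 1.25% of negative male Tregs. The 51 Il2 UMIs in positive male Tregs came from 2 cells and the 174 Csf2 UMIs from 1 cell, and negative male Tregs had 0 Il2 UMIs. Positive Tregs were deeper, with medians of 10727 against 6399.5 UMIs female and 9220 against 5682 male, and whether some barcodes held a second cell was not tested.

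In Cd8 barcodes the ligand went with Cd4 transcripts. Cells with 0 Cd4 UMIs had 112 Cd40lg UMIs in the female library, 3.67 CPM, found in 3.43% of 2128 cells, and 168 in the male library, 7.44 CPM, in 4.56% of 1866. Cells with 2 or more Cd4 UMIs had 18.6 CPM, found in 33.3% of 63 cells, and 26.9 CPM, in 48.6% of 37 cells. The level was 5.07-fold (3.45 to 7.31) and 3.62-fold (2.35 to 5.40) that of cells with none. With 1 Cd4 UMI the level was 19.3 CPM in the female library, 5.27-fold (3.32 to 8.07) that of cells with none, but 9.24 CPM in the male library, where no difference was detectable (1.24-fold, 0.585 to 2.34). Pooled median depth was 9384.5 UMIs with 0 Cd4 UMIs and 22741 with 2 or more, and whether the latter barcodes held a CD4 T cell beside a CD8 T cell was not tested.

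Over all Cd8 barcodes (110 positive and 2135 negative female, 111 and 1829 male), 194 of 9895 genes (1.96%) were higher and 50 (0.505%) lower beside Cd40lg in both libraries, and 61 had opposite directions. Of these, 96 higher and 43 lower genes were called again without the richest cells. Cd4 was itself among the leading genes, with 86 observed against 15.2 expected UMIs (log2 2.50) and 70 against 7.64 (3.20). Macrophage markers summed to 20.5 CPM in positive and 5.98 CPM in negative female cells and 72.8 and 23.5 CPM in male ones, MHC II markers to 171 against 80.1 CPM and 435 against 178 CPM, and their part in the list was not tested. With other Cd4 cells the Cd8 list shared 7 higher genes, 5.43% of the other Cd4 list and 3.61% of the Cd8 list, and no lower gene.

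Because Cd4 transcripts moved with Cd40lg, the count was repeated in the Cd8 barcodes with 0 Cd4 UMIs (73 positive and 2055 negative female, 85 and 1781 male). There 130 of 8974 genes (1.45%) were higher and 31 (0.345%) lower in both libraries, with 81 in opposite directions. A lower call needed 20 expected UMIs and a higher call did not, and among the 5849 genes with that many 39 were higher and 30 lower. Without the richest cells, 65 of the 130 and 26 of the 31 were called again. The higher list shared 82 genes and the lower list 9 with those of all Cd8 barcodes. Median depths were close, 9962 UMIs for positive and 10194 for negative female cells and 10168 and 8529 for male ones. H2-Aa was found in 0 positive and 1.70% of negative female cells and in 7.06% and 2.08% of male cells, and its part in the lists was not tested.

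Itgae and genes of the Ifitm family were found in many of these cells. Itgae, which encodes the CD103 integrin of tissue-resident T cells, had 48 observed against 10.3 expected UMIs (log2 2.23) and 65 against 15.7 (2.05), and was found in 28.8% of positive and 6.03% of negative female cells and 27.1% and 9.32% of male cells. Ifitm2, an interferon-induced membrane gene, was the most abundant of the leading genes, with 1068 against 379 (1.5) and 984 against 339 (1.54), found in 76.7% against 41.4% and 80.0% against 36.8% of cells. The related genes, whose reads may be shared in part, followed, Ifitm1 in 67.1% against 32.6% and 69.4% against 28.1% of cells, and Ifitm3 in 47.9% against 23.9% and 52.9% against 20.6%. In other Cd4 cells Ifitm2 was not called, being found in 15.8% of positive and 17% of negative female cells and in 34.2% and 18.1% of male cells.

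Members of the activation and helper lists were higher as well, some of them through 1 cell. Of 13 receptor activation genes, 4 were higher, namely Egr2 (1.16 and 1.80), Cd69 (366 against 176 UMIs, 1.06, and 399 against 230, 0.79), Irf4 (1.03 and 0.73) and Tnf (0.96 and 0.84), and Irf8 was lower (−0.71 and −0.85). The list medians were 0.48 and 0.62 against 0.00 and −0.04 over all genes. Without the richest cells Cd69 (0.88 and 0.72), Irf4, Tnf and Irf8 stayed past 1.5-fold in both libraries, while Egr2 (0.18 and 1.56) did not. Of 10 helper genes, 5 were higher: Ifng (428 against 228 UMIs, 0.91, and 496 against 281, 0.82), Tnf, Tnfsf14, which encodes LIGHT (0.89 and 1.59), Tnfsf11 (1.02 and 0.67) and Lta (0.68 and 0.93). Of these, Tnf (0.76 and 0.64) and Tnfsf14 (0.64 and 1.24) stayed past 1.5-fold without the richest cells, and Ifng (0.56 and 0.30), Tnfsf11 and Lta did not. Tnfsf8, whose level followed Cd40lg over the barcode classes, was not called inside these cells, at −0.25 and 2.04. Of 12 Th1 genes, Ifng, Cxcr3 (0.82 and 0.62) and Il18r1 (0.59 and 0.72) were higher, none of them without its richest cells, and Ahr was the 1 higher of 3 Th17 genes (1.26 and 1.36). Itgb1 (0.65 and 0.89) was the 1 of 4 binding partner genes, while none of 18 CD40 signalling genes and none of 10 transcription genes was called.

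Of the other leading genes, Csf2, which encodes a myeloid growth factor, had 99 against 12.4 UMIs (2.99) and 87 against 23.4 (1.89), but 43.4% and 83.9% of the observed UMIs came from 1 cell in each library, and without those cells the male ratio turned to −0.71. Cxcl10, a chemokine gene, had 53 against 9.24 (2.52) and 57 against 9.08 (2.65), with 73.6% and 73.7% from 1 cell (0.62 and 0.76 without). Tnfrsf25, a TNF receptor gene (2.97 and 2.20), had 63.2% of its female UMIs in 1 cell and stayed higher without it (1.57 and 1.99). The heat shock gene Hspa1a (1.84 and 1.61) had 83.7% of its female UMIs in 1 cell, and without it the female ratio turned to −0.75. Nacc2 (2.76 and 1.54), Ggt1 (2.03 and 1.59), Krt83 (1.72 and 1.87), B4galnt4 (1.62 and 1.60), Slc39a8 (1.49 and 1.59) and Trat1, a T cell receptor adaptor gene (1.42 and 1.40), completed the list, each on few UMIs. Krt83 thus went with Cd40lg both across barcode classes and inside these Cd8 cells. Of 14 dissociation stress genes, 4 were higher (Hspa1a and its near-identical copy Hspa1b, Fosb and Atf3), of which Atf3 stayed past 1.5-fold in both libraries without its richest cells, and their part in the other differences was not tested.

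Entpd1 and Gzmk were lower beside the ligand, with and without the richest negative cells. Entpd1, which encodes the CD39 ectoenzyme of exhausted T cells, had 41 observed against 80.8 expected UMIs (−0.98) and 32 against 67.7 (−1.08), found in 24.7% of positive and 40.2% of negative female cells and 21.2% and 31.1% of male cells. It was the 1 called of 9 inhibitory receptor and exhaustion genes, whose medians were −0.58 and −0.44. Gzmk, a granzyme gene, was lower (−0.76 and −1.44) and the 1 called of 11 cytotoxic genes. Itga4, which encodes an integrin subunit, had 80 against 151 (−0.92) and 45 against 97.2 (−1.11), and Gimap7 91 against 158 (−0.80) and 74 against 143 (−0.95). Eno3 (−1.18 and −1.12) and Mt3 (−0.89 and −1.02) were also lower, and none of 12 cell cycle genes was called. Eno3 was nevertheless found in more positive than negative female cells, 16.4% against 11.2%, and in 7.06% against 10.7% of male cells. S1pr1, a tissue exit receptor gene, was higher (0.76 and 0.78), as 1 of 10 naive genes.

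The same genes were read in the Cd8 barcodes that did hold a Cd4 UMI (37 positive and 80 negative female, 26 and 48 male). Tnfsf8 was found in 67.6% of positive and 31.3% of negative female and 46.2% and 35.4% of male barcodes. Itgae was found in 18.9% against 13.8% and in 11.5% against 16.7%, and Ifitm2 in 73.0% against 67.5% and 69.2% against 70.8%. Here the shares with Itgae and with Ifitm2 differed by a few percentage points, with opposite signs in the libraries.

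**Figure D4:**
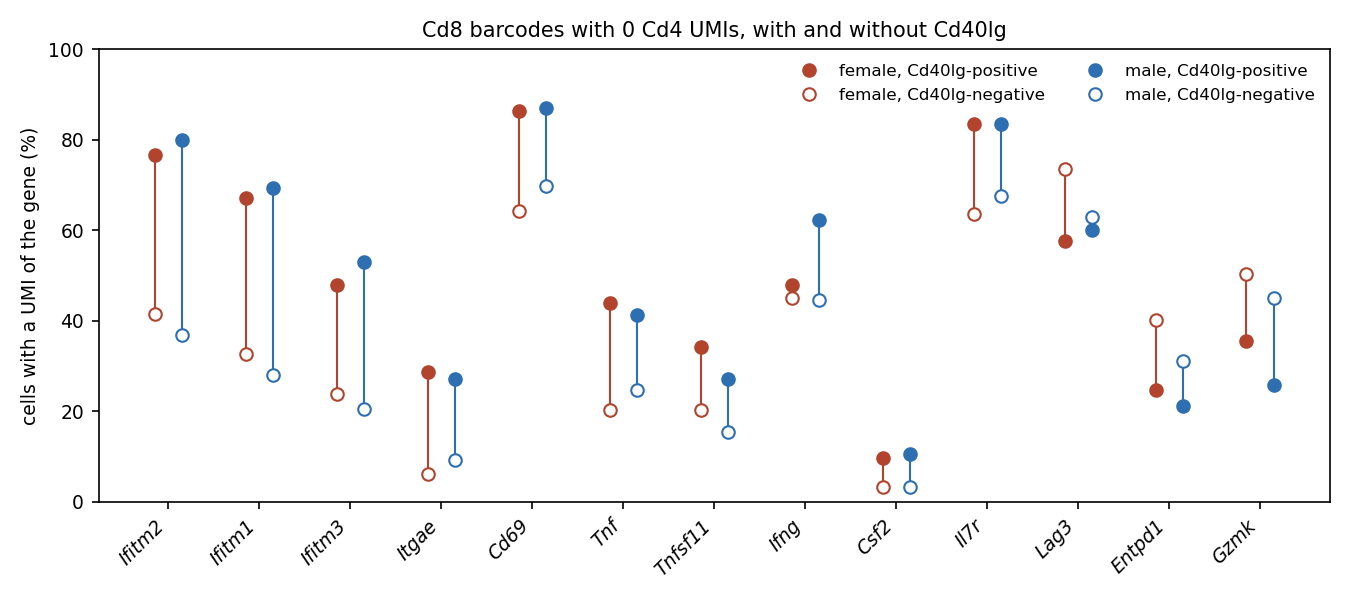
Share of Cd8 barcodes with 0 Cd4 UMIs that held at least 1 UMI of each gene, for Cd40lg-positive (filled) and Cd40lg-negative (open) cells of the female (red) and male (blue) library, joined by a line. Ifitm2 was found in 76.7% and 80.0% of positive cells against 41.4% and 36.8% of negative ones and Itgae in 28.8% and 27.1% against 6.03% and 9.32%, while Entpd1 and Gzmk were found in fewer positive cells.

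The receptor was found in MHC II barcodes and hardly in other Cd4, Treg and Cd8 barcodes. MHC II barcodes held 66.0% of the female and 47.3% of the male Cd40 UMIs. Barcodes in none of these states held 10 female and 39 male Cd40 UMIs. Cd40 had 31 UMIs in 15 of 62 female MHC II barcodes, 10.1 CPM (6.83 to 14.3), and 43 UMIs in 26 of 98 male ones, 10.9 CPM (7.90 to 14.7). Cd8 barcodes had 10 and 16 UMIs, 0.293 and 0.646 CPM, Tregs 2 and 4 UMIs, and other Cd4 barcodes 0 and 2 UMIs, where 0 allows up to 1.89 CPM. The MHC II level was 34.3-fold (16.4 to 78.4) and 16.9-fold (9.32 to 32.1) the Cd8 level, and 7.81-fold (3.42 to 22.0) the Treg level over both libraries. Of the Cd8 barcodes' Cd40 UMIs, 6 female and 10 male ones lay in the 19 and 23 barcodes that are also MHC II barcodes, and without these the ratio to Cd8 was 83.5 (29.5 to 326) and 43.8 (18.6 to 126). Likewise, 10 Treg barcodes with 3 Cd40 UMIs were also MHC II barcodes. With these taken out of the Treg state, the ratio to Treg was 14.8 (4.87 to 73.4) over both libraries. MHC II barcodes were very deep, with medians of 52041 and 37131.5 UMIs, and after thinning to 3730 UMIs 5.0% and 5.95% held a Cd40 UMI. No difference between the libraries was detectable in them, the log2 ratio of female over male being −0.12 (−0.83 to 0.58).

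Keratin-positive barcodes had Cd40 at a like level, 8 UMIs or 5.64 CPM (2.44 to 11.1) for female and 14 UMIs or 12.2 CPM (6.69 to 20.5) for male barcodes. In each library 12 of these barcodes, with 8 female and 5 male Cd40 UMIs, were also MHC II barcodes. Over both libraries the keratin-positive level was 0.793 times (0.464 to 1.31) that of the remaining MHC II barcodes and 19.4 times that of Cd8 barcodes (10.5 to 35.7). Of the keratin-positive barcodes without an H2-Aa UMI, 15 female ones had 0 Cd40 UMIs, which allows up to 5.47 CPM, and 11 male ones had 9 UMIs, 18.9 CPM. Cd8 barcodes with a Cd40 UMI were deep, with medians of 61559 and 31805 UMIs against 10469.5 and 8784 without one. The 2 female Tregs with a Cd40 UMI were deep too (79462.5 against 6421 UMIs), but the 3 male ones were not (5307 against 5996.5). The 2 male other Cd4 barcodes with a Cd40 UMI had a median of 5784.5 UMIs against 5219 without one. Leaving out every barcode with an H2-Aa UMI brought Cd40 in Cd8 barcodes to 0.125 CPM over both libraries.

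Most MHC II barcodes also held T cell transcripts. Of these, 43 female and 82 male ones had a Cd3e UMI and fewer than 10 keratin UMIs, of which 39 and 71 had a Cd8a UMI, and Cd40 stood at 10.4 and 11.0 CPM in them. A further 12 in each library had no Cd3e UMI and at least 10 keratin UMIs, and their Cd40 stood at 10.5 and 8.01 CPM. They held no Ptprc, Flt3, Itgax or Csf1r UMI, and also no UMI of the epithelial marker Epcam. Epcam was found in 6 female and 8 male barcodes of the class with Cd3e and fewer than 10 keratin UMIs. The remaining barcodes without Cd3e and with few keratin UMIs, 5 female and 4 male, were shallow (medians of 5456 and 8702 UMIs) and had 1 and 2 Cd40 UMIs. Their Cd40 level was the highest of these classes but rested on these few counts, at 31.2 CPM (0.79 to 174) female and 58.9 CPM (7.13 to 213) male. The MHC II barcodes with Cd40 here were thus mostly ones with T cell or keratin transcripts, and which cells they held, and in what share, was not tested.

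Cd40 was higher in barcodes with more class II transcripts, beyond counting error in the male library. MHC II barcodes with 10 or more H2-Aa UMIs (41 and 57) had 11.2 and 14.6 CPM and those with 3 to 9 (21 and 41) had 6.99 and 5.20 CPM, a ratio of 1.61 (0.644 to 4.79) and 2.81 (1.28 to 7.01). Barcodes with Foxp3 and Cd8 transcripts, which could also be MHC II barcodes, held 42.6% of the female and 42.9% of the male Cd40 UMIs. They differed in the same direction. Those with an H2-Aa UMI (31 and 83) had 6.96 and 8.09 CPM and those without (344 and 381) had 0.596 and 0.403 CPM, a ratio of 11.7 (4.39 to 33.0) and 20.1 (8.30 to 58.5). Cd40 and Cd40lg were found together in 4 female and 7 male barcodes.

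MHC II barcodes with a UMI of Cd209a, a marker of monocyte-related dendritic cells, had a Cd40 level of 31.8 CPM (15.9 to 56.9) in 10 female and 17.9 CPM (8.58 to 32.9) in 15 male barcodes. Those with a C1q UMI, a macrophage complement component, had 8.09 and 3.39 CPM in 14 and 31 barcodes. Barcodes with Fscn1, a marker of mature dendritic cells that was also found in 10 and 7 of the 12 keratin-rich MHC II barcodes without Cd3e, had 10.5 and 14.6 CPM against 9.76 and 9.52 CPM without it, a ratio of 1.29 (0.780 to 2.10) over both libraries.

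**Figure D5:**
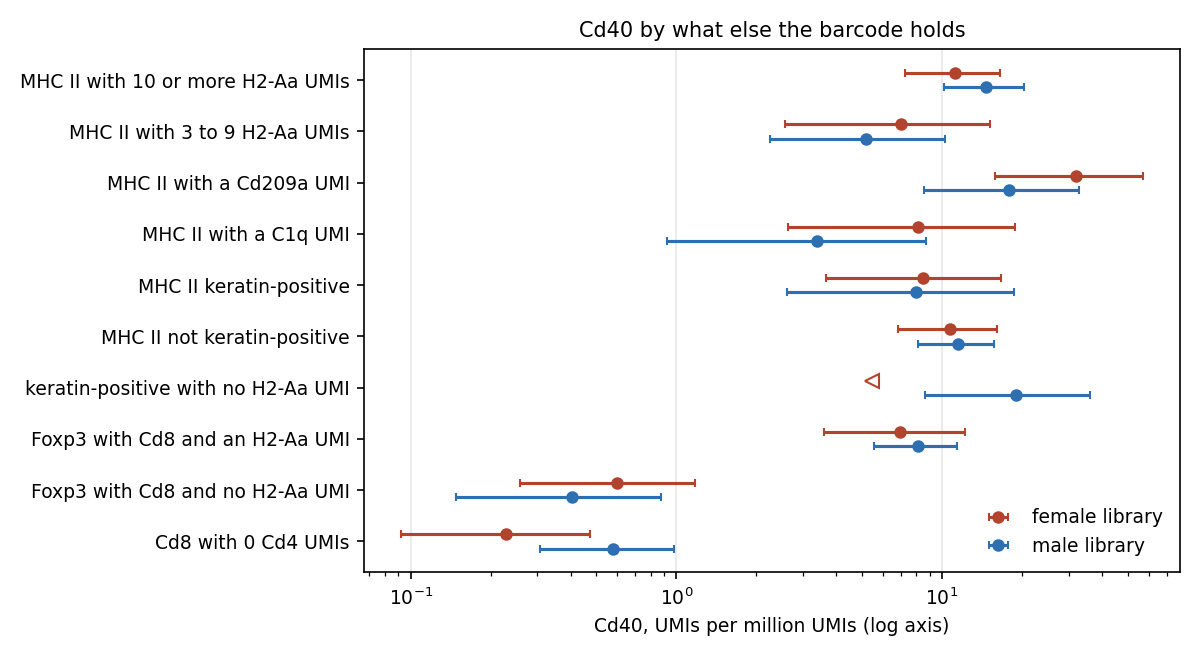
Cd40 level in CPM on a log axis, with exact 95% counting intervals, in barcodes split by what else they held, for the female (red) and male (blue) library; the open triangle is the limit of 3 counts where no UMI was seen. Cd40 is 31.8 and 17.9 CPM in MHC II barcodes with a Cd209a UMI, and in barcodes with Foxp3 and Cd8 transcripts it is 6.96 and 8.09 CPM with an H2-Aa UMI against 0.596 and 0.403 CPM without.

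Within MHC II barcodes, 223 of 8975 genes (2.48%) were higher and 36 (0.401%) lower beside Cd40 in both libraries (15 positive and 47 negative female, 26 and 72 male), and 201 had opposite directions. Among the 4713 genes with at least 20 expected UMIs, which only a lower call needed, 35 were higher, 25 lower and 23 opposite. Without the richest barcodes, 62 of the 223 and 7 of the 36 were called again. Of 10 CD40 target genes measured, Cd83, a maturation marker gene (83 observed against 34.9 expected UMIs, log2 1.25, and 192 against 72.2, 1.41), Fscn1 (51 against 22.2, 1.20, and 72 against 25.5, 1.5) and Cd274, which encodes PD-L1 (92 against 55.3, 0.74, and 158 against 85.0, 0.89), were called and none was lower. Without the richest barcodes Cd83 stayed past 1.5-fold (0.76 and 1.27), while Fscn1 (0.60 and −0.03), of whose male UMIs 1 barcode held 68.1%, and Cd274 (0.26 and 0.78) did not. The costimulatory genes Cd86 (0.36 and 1.16) and Cd80 (0.30 and 0.95) were not called, and the list medians were 0.59 and 0.85 against 0.10 and 0.05 over all genes. Of 18 CD40 signalling genes, Birc2 was higher (0.72 and 0.73, and 0.36 and 0.41 without the richest barcodes) and Traf5 lower (−0.94 and −0.82). Of 6 binding partner genes, Itgam was higher (1.35 and 0.63, and 0.95 and 0.21 without the richest barcodes), and Cd200, a ligand of the receptor encoded by Cd200r1, was higher among 9 helper genes (1.16 and 1.18).

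Among the genes highest beside Cd40 were several found in few barcodes. Clec10a, a lectin gene of dendritic cells and macrophages, had 14 against 1.75 UMIs (3.0) and 66 against 11.3 (2.54), Cd209a 20 against 3.12 (2.68) and 83 against 28.9 (1.52), and Cxcl16, the ligand gene for CXCR6, 32 against 11.6 (1.46) and 76 against 22.1 (1.78). Clec10a and Cd209a were each found in 3 of the 15 positive female barcodes, and 1 barcode held 56.1% of the male Clec10a UMIs and 55.0% and 51.8% of the female and male Cd209a UMIs. Without the richest barcodes, Clec10a stayed higher (2.37 and 1.38), as did Cxcl16 (1.12 and 1.5), while Cd209a fell under 1.5-fold in the male library (1.53 and 0.47). Ncf1, a subunit gene of the phagocyte oxidase (2.14 and 1.77), Cfp, which encodes properdin (1.63 and 1.83), Ptafr (1.53 and 1.29), Zfp287 (2.71 and 1.74), Grk3 (2.80 and 1.62), Pkib (1.78 and 1.60) and B3gnt5 (1.69 and 1.39) were also higher. Of the observed UMIs, 1 barcode held 36.4% female and 18.5% male for Ncf1 and 46.2% and 19.2% for Cfp. For the genes from Ncf1 to B3gnt5, and for Traf5 and Cd200, the ratios without the richest barcodes are not reported here. Lower were Ank3 (−2.07 and −1.80), Hmox1, which encodes haem oxygenase (−1.73 and −1.97), Arg1, which encodes arginase (−1.09 and −3.57), and Ccn1 (−1.18 and −2.98). Of these 4, only Ank3 stayed past 1.5-fold in both libraries without the richest negative barcodes. Dendritic markers summed to 658 CPM in positive and 264 CPM in negative female barcodes and 476 and 326 CPM in male ones. These sums include Ccr7, which is also among the naive T cell genes. Over all MHC II barcodes, Ccr7 had 912 female and 1014 male UMIs, against 1136 and 1455 for the dendritic markers together. Without keratin-rich barcodes, the ratios of Ccr7 beside Cd40 were 1.26 female and −0.02 male, and it was not called. How much of the dendritic sums came from dendritic cells was not tested. Macrophage markers summed to 189 and 161 CPM in female barcodes and to 90.4 and 291 CPM in male ones.

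Several of these genes were called again when barcodes with 10 or more keratin UMIs were left out (12 positive and 36 negative female, 23 and 63 male). Cd83 (0.98 and 1.40), Fscn1 (1.48 and 1.65), Cd274 (0.68 and 0.93), Clec10a (1.72 and 2.54), Cd209a (0.96 and 1.47) and Cxcl16 (1.97 and 1.78) stayed past 1.5-fold in both libraries, and 128 of the 223 higher genes were called again. When barcodes with a Cd3e UMI were left out, few barcodes remained, and of the 34 genes then called higher and 40 called lower, 0 and 3 were among the 223 and the 36. The genes whose levels followed Cd40 most closely over the 7 classes were Pja2 (r 0.97), Phpt1 (0.96), Arhgef40 (0.94), Eif2b3, Sept8 and Nme6 (0.93 each), and Dag1 and Psmg4 (0.92 each), again as a description over 14 points, none of them in the CD40 lists.

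Between the libraries, 5 CD40 target genes were lower in female MHC II barcodes. In MHC II barcodes, where 502 of 8277 genes (6.06%) were at least 1.5-fold higher and 456 (5.51%) lower in the female library, these were 5 of the 12 target genes measured, and none was higher, with a list median of −0.27 against −0.02 over all genes. The 5 were Cd86 (109 female and 252 male UMIs, log2 −0.86, interval −1.19 to −0.53), Cd80 (−0.75, −1.18 to −0.33), Cd83 (193 and 391 UMIs, −0.67, −0.92 to −0.41), Ccl22, a dendritic chemokine gene (−1.11), and Tnfsf4, which encodes OX40 ligand (−0.88). None of 18 signalling genes passed 1.5-fold, with a median of −0.21, and none of 6 binding partner genes did. Of 10 transcription genes, Egr1 was lower (−0.82). Since MHC II barcodes were mixed with T cell and keratin transcripts, a different makeup of these barcodes in the 2 libraries and a different level per cell cannot be told apart.

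In other Cd4 barcodes, where 638 of 7925 genes (8.05%) were higher and 610 (7.7%) lower in the female library, none of 18 CD40 signalling genes passed 1.5-fold (median 0.05 against 0.04 over all genes). Of 10 target genes, Bcl2a1b (0.70, 0.58 to 0.82) and Cd86 were past 1.5-fold upward, though Cd86 rested on 25 and 12 UMIs with an interval that included 0 (0.86, −0.19 to 1.98). Cd83 (−1.63), Ccr7 (−0.85) and Cd70, which encodes the CD27 ligand (−2.20), were lower, and the median was −0.03. Of 4 binding partner genes, Itgb3 was higher (0.67), and of 10 genes of CD40L transcription and RNA decay, Jun was lower (−0.75). None of the 10 transcription genes passed 1.5-fold upward in female cells, where the Cd40lg level was higher.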

How the data were processed

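Single-cell RNA libraries of 1 female and 1 male tumour sample were measured. The deposited files give raw UMI counts, whole numbers for each gene in each barcode, and per the file headers they come from Cell Ranger 7.0.1. The submitters' processing notes name the build GRCm38 and Seurat 5, and every barcode in the deposited files has at least 500 UMIs. The cell caller's settings are not given in the sources used here.

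Counts were processed with Python 3.11.15, numpy 2.4.6, scipy 1.17.1, pandas 2.3.3 and matplotlib 3.10.9. UMIs were summed per class and library over the class's total, and the limit for 0 was set to 3 counts. Intervals were exact at 95% (Poisson for a count, Clopper-Pearson for a share, conditional binomial for a ratio). Shares were also taken as the exact mean over thinning draws to 3730 UMIs, the 10th percentile of the T cell states. Gene co-occurrence used 5 bands of UMI depth per state and library. A gene needed 10 observed plus expected UMIs in each library, and either 5 positive cells with the gene in 1 of the libraries (higher) or 20 expected UMIs in each (lower), and at least 1.5-fold in both libraries. Pattern likeness used log2(CPM + 1) of genes with at least 20 CPM in 1 class. Comparisons of lists between libraries needed 10 CPM in 1 library and 20 UMIs over both. Gene coordinates came from the GENCODE annotation of GRCm38, matched by identifier.

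Genes were named as the 12 highest and 8 lowest called genes by the smaller ratio of the 2 libraries and as up to 4 members of each of 17 gene lists, with receptor segments, mitochondrial, ribosomal, predicted and sex genes left out. The values of Ifitm1 and Ifitm3, the splits within a state, and the values of Cd40lg-positive Tregs and of Cd8 barcodes with a Cd4 UMI were chosen after results were seen. The members, lists and rules were chosen with earlier results of these data known. The calculation was tested on simulated data, drawn as independent Poisson counts per cell. The simulation held no clustering of UMIs in cells, so it cannot show how many calls such clustering gives. Alternatives were other cell filters, state rules, depth bands and count minimums, edgeR 4.0.16 effective library sizes (R 4.3.3), and leaving out classes of barcodes. Some values that these rules name are not reported here.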

Additional observations from a re-analysis of the deposited data

Results flagged for a closer look

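Cd40lg differed between the libraries in opposite directions in different T cell states. The log2 ratio of female over male was 0.45 in other Cd4 barcodes, against −1.88 in Treg and −0.66 in Cd8 barcodes. With 1 library per sex, this difference between states was not tested. Without the barcode richest in Cd40lg in each library, the ratios were 0.40, −2.04 and −0.66.

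Cd40lg stood at 102 CPM (female) and 73.7 CPM (male) in barcodes that the state rules leave out, those with a Cd3e UMI and no Cd4, Foxp3, Cd8a or Cd8b1 UMI. Keratin-positive barcodes, the background class, had 0 Cd40lg UMIs. What these cells are was not tested.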

How the results depend on the processing

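No paired analysis was possible because the labels carry no replicate numbers and each sex has 1 library. Of the main values, 85 stayed within their limits and 37 moved, as did 21 values of single classes or lists. The Cd40lg ratio of female over male in MHC II barcodes, whose interval included 0, was close to 0 with equal weight per cell. The Cd40lg log2 ratio of female over male in other Cd4 cells was 0.14 when 2 Cd4 UMIs and a Cd3e UMI were asked for. In Cd8 barcodes, Cd40lg was 5.27 CPM and the ratio −1.02 with no Cd4 UMI, and 7.86 CPM without barcodes above 3 times the median depth. With equal weight per cell, Cd40lg was 8.45 CPM in Cd8 and Cd40 was 16.0 CPM in MHC II barcodes. Pooled Cd40lg levels of 130 (other Cd4), 12.4 (Treg) and 6.58 CPM (Cd8) became 148, 4.99 and 5.28 in the female and 108, 18.4 and 8.36 in the male library alone. Counts of genes beside Cd40lg in other Cd4 cells, Cd40lg in Cd8 barcodes and Cd40 in MHC II barcodes, in that order, were 39, 105 and 86 higher with 30 observed plus expected UMIs. A minimum of 3 gave 237 higher in other Cd4 and 346 in MHC II. At 2-fold, 25, 64 and 48 were higher and 6, 5 and 5 lower. Without depth bands, 21 genes were lower in Cd8 and 16 in MHC II. By share of cells, 11 were lower in other Cd4, 4 lower in Cd8 and 101 higher in MHC II. Without H2-Aa barcodes 22 were lower in Cd8, without Cd4 UMIs 31, and in MHC II 34 were higher and 40 lower without Cd3e barcodes and 11 lower without keratin barcodes. Without the deepest barcodes, 77 of the 129 higher and 27 of the 41 lower genes in other Cd4 and 111 of the 194 higher but 9 of the 50 lower genes in Cd8 were called again. Without the cell richest in the gene in each library, an alternative chosen after seeing the data, 45 genes were higher and 15 lower in other Cd4, 96 higher in Cd8, and 62 higher and 7 lower in MHC II. Depth limits Cd40 in T cells, where 0 to 16 UMIs were seen per state and library.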
